A study of Rattus norvegicus with 13 samples.

Results

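The genes examined here were 10 that govern entry into the cell cycle: 4 inhibitors of cyclin-dependent kinases (Cdkn1a, Cdkn1b, Cdkn1c and Cdkn2b), the 3 D-type cyclins (Ccnd1, Ccnd2 and Ccnd3), and 3 genes best known as targets of the tumour suppressor p53 (Ccng1, Gadd45a and Mdm2). They were taken as a list of gene names. They were read by 16 probe sets of 31042 on the Affymetrix rat genome expression array, and a gene with several is represented by the probe set with the highest mean log2 signal, as 10 of 13748 genes tested in this way. All 16 probe sets passed the filter on low values, which required a signal above a floor of 5.71 on at least 1 of 13 arrays.

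The cells were second-passage articular chondrocytes, isolated from femoral head cartilage of male Wistar rats 2 months old and pooled before seeding, with 1 array per flask. The groups were glucosamine plus IL-1β (4 arrays; 20 mM glucosamine for 6 hours and then together with 10 ng/ml IL-1β for 14 hours), glucosamine alone (2 arrays; 20 mM for 20 hours), IL-1β alone (4 arrays; 10 ng/ml for 14 hours) and untreated cultures (3 arrays), all in serum-supplemented medium. These groups follow the titles, source names and growth protocols, whereas the description label of all 13 samples, untreated ones included, names culture with 20 mM glucosamine. All flasks came from the same pool of cells, so that the p-values measure the spread between flasks and not between animals. In such bulk cultures, fewer cells of a type and less RNA per cell cannot be told apart.

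In the first gap phase of the cell cycle, D-type cyclins bind the kinases CDK4 and CDK6, and cyclin E binds CDK2, and these complexes phosphorylate the retinoblastoma proteins so that E2F factors can switch on the genes of DNA replication. Inhibitors of the CIP/KIP family (Cdkn1a, Cdkn1b and Cdkn1c) bind cyclin-kinase complexes, whereas the INK4 family (Cdkn2b and its relatives) binds CDK4 and CDK6. In cartilage, the balance between these genes accompanies the passage of chondrocytes between proliferation and maturation, and the pathway of p53 adds inhibitors and checkpoint genes under stress.

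Signals are the linear intensities deposited by the authors. Differences are given as log2 fold changes of signals raised to the floor, with the standard error (SE), and a call means that limma gave an adjusted p (Benjamini-Hochberg, over all 29263 probe sets tested) under 0.05. Folds are ratios of geometric means. Signals of different probe sets were not compared with each other. Mean signals per array were 127 to 145, with 75th percentiles of 112 to 119. The 2 replicate d arrays stood apart in the lower part of their values. Their 1st percentiles were -36.8 and -31.0, while those of the remaining 11 arrays were -6.47 to -4.81. Their medians were 38.7 and 37.9, while the others had medians of 20.8 to 24.6. One was a glucosamine plus IL-1β array and the other an IL-1β array, and the groups without IL-1β had no such array. Calls that were gained or lost without both replicate d arrays are named. The chondrocyte marker Col2a1 read 2422 to 4165 over all arrays by its representative probe set, but the paper lists a collagen type II entry among the genes most reduced by IL-1β. The summed signal of 7 chondrocyte markers was 5974 to 7126 in glucosamine plus IL-1β, 7603 to 7926 in glucosamine, 5400.4 to 6552 in IL-1β and 9871 to 11115 in untreated cultures. The leukocyte marker Ptprc lay near the floor, between -9.02 and 10.8. The summed signal of 15 proliferation markers was 1030.3 to 1122 in glucosamine plus IL-1β, 925 to 1052 in glucosamine, 3662 to 4245 in IL-1β and 3745 to 3856 in untreated cultures.

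Glucosamine raised 4 of the 10 genes over untreated cultures (Cdkn1c, Gadd45a, Mdm2 and Ccng1) and lowered 1 (Cdkn1b), where 10.4% of all 13748 genes were called higher and 9.37% lower. IL-1β raised 3 (Ccnd1, Gadd45a and Mdm2) and lowered 3 (Cdkn1c, Cdkn1b and Ccnd3), where 15.5% of all genes were called higher and 15.3% lower. With both agents, 4 genes were higher than in untreated cultures (Gadd45a, Ccng1, Mdm2 and Cdkn1c) and 3 were lower (Cdkn1b, Ccnd3 and Ccnd1), where the shares of all genes were 16.6% and 14.7%. These 3 comparisons share the untreated arrays.

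Adding IL-1β to glucosamine lowered Cdkn1c and Cdkn1b, where 1.45% of all genes were called higher and 1.13% lower. Against IL-1β alone, both agents together raised 4 genes (Cdkn1c, Cdkn1b, Ccng1 and Gadd45a) and lowered Ccnd1, where 15.8% of all genes were called higher and 14.8% lower. The interaction, the response to IL-1β with glucosamine minus that without it, was called for 5 genes, higher for Cdkn1b and Cdkn1c and lower for Ccnd1, Gadd45a and Mdm2, where 5.11% of all genes were called higher and 6.68% lower. The median absolute log2 fold change of the 10 genes was 0.53 for glucosamine over untreated cultures, where that of all genes was 0.25. For IL-1β it was 0.83 (all genes 0.37), and for both agents over untreated cultures 0.56 (0.39). The medians were closer for both agents over glucosamine, 0.20 (0.18), and over IL-1β, 0.35 (0.28). For the interaction it was 0.61 (0.28). The representatives of the 10 genes were above the floor on all 13 arrays, which the filter did not require of the other genes.

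**Figure D1:**
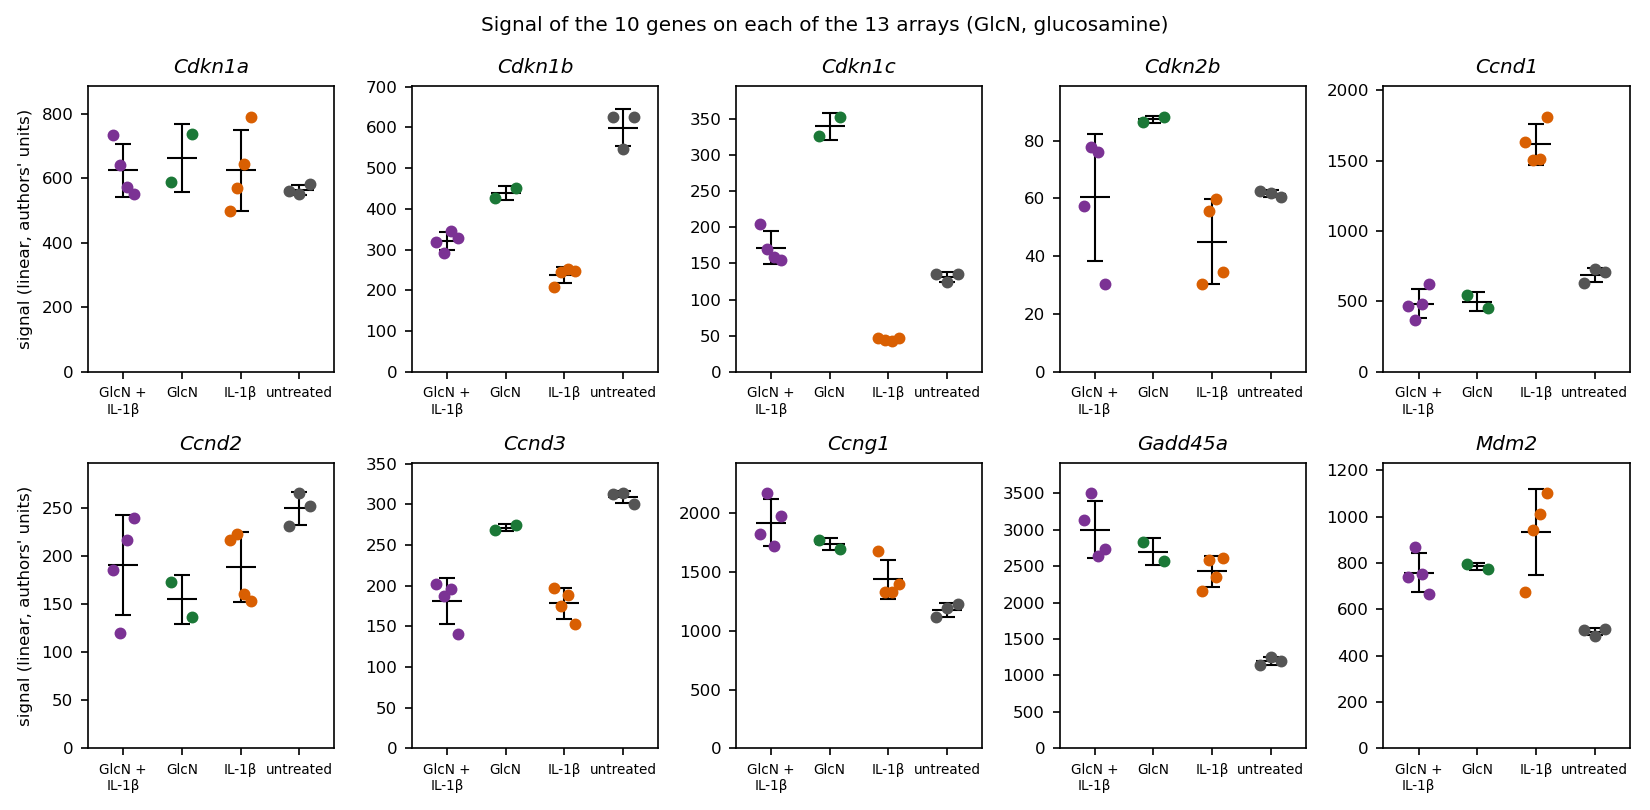
Deposited signal (linear intensity) of the representative probe set of each of the 10 genes on every array, with glucosamine plus IL-1β, glucosamine, IL-1β and untreated cultures from left to right. Points are arrays, and lines with error bars are the group mean and SD; Cdkn1c read 43.3 to 47.0 in IL-1β cultures and 326 to 353 in glucosamine cultures.

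Of the CIP/KIP inhibitors, Cdkn1c (p57), which in mice is required for growth plate chondrocytes to leave the cell cycle, moved in opposite directions with the agents. It read 205, 169.6, 158 and 154 in glucosamine plus IL-1β, 326 and 353 in glucosamine, 46.3, 44.7, 43.3 and 47.0 in IL-1β, and 135, 124 and 136 in untreated cultures. No 2 groups overlapped, and glucosamine cultures were highest and IL-1β cultures lowest. Against untreated cultures, Cdkn1c was 2.58-fold higher with glucosamine (log2 fold change 1.37, SE 0.12, adjusted p = 1.1e-05) and 2.90-fold lower with IL-1β (-1.54, SE 0.096, adjusted p = 2.8e-07). With both agents it was higher than in untreated cultures (0.38, SE 0.096, adjusted p = 0.0132), a call that was lost without untreated replicate b and with quantile normalization. It was also 3.77-fold higher than with IL-1β alone (1.91, SE 0.089, adjusted p = 4.5e-08) and 1.99-fold lower than with glucosamine alone (-0.99, SE 0.11, adjusted p = 5.0e-04). IL-1β lowered Cdkn1c with and without glucosamine, and the interaction of 0.55 (SE 0.15, adjusted p = 0.0396) lost its call in 12 of 23 alternative settings, where the adjusted p ranged between 0.0183 and 0.198.

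Cdkn1b (p27), which restrains cyclin E and CDK2 in resting cells, was highest in untreated cultures. The signal was 319, 292, 345 and 328 in glucosamine plus IL-1β, 426 and 450.3 in glucosamine, 208, 244, 251 and 246 in IL-1β, and 626, 547 and 627 in untreated cultures. The 4 groups did not overlap. Cdkn1b was 1.37-fold lower with glucosamine (log2 fold change -0.45, SE 0.099, adjusted p = 0.0088), 2.53-fold lower with IL-1β (-1.34, SE 0.083, adjusted p = 2.6e-07) and 1.87-fold lower with both (-0.90, SE 0.083, adjusted p = 8.4e-06), all against untreated cultures. The call for glucosamine was lost without glucosamine replicate a and, with a log2 fold change of -0.19, when the probe sets of the gene were averaged. With both agents it was 1.35-fold higher than with IL-1β alone (0.44, SE 0.077, adjusted p = 0.00135), and the interaction was 0.89 (SE 0.13, adjusted p = 8.1e-04), and these 2 calls were also lost on averaging. The fall of 1.37-fold when IL-1β was added to glucosamine (-0.45, SE 0.094, adjusted p = 0.0318) lost its call in 13 of 25 alternative settings, among them without both replicate d arrays, with adjusted p between 0.0122 and 0.49. The other probe set (1369192_at) was above the floor on 2 of 13 arrays and gave no call, so that averaging with it makes the log2 fold changes smaller.

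Cdkn1a (p21), the inhibitor through which p53 arrests cells, was not called in any of the 6 comparisons by either of its probe sets. It read 734, 642, 572 and 553 in glucosamine plus IL-1β, 589 and 737 in glucosamine, 498, 569, 644 and 791 in IL-1β, and 559, 550.1 and 581 in untreated cultures. By both probe sets, the glucosamine arrays lay above all untreated ones. The treated groups spread more widely than the untreated one, with an SD of 126 in IL-1β cultures against 15.9 in untreated cultures. The log2 fold change against untreated cultures was 0.23 for glucosamine (SE 0.18, adjusted p = 0.60), 0.13 for IL-1β (SE 0.15, adjusted p = 0.60) and 0.14 for both (SE 0.15, adjusted p = 0.55).

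Cdkn2b (p15), the INK4 inhibitor known as a target of TGF-β, was also not called in any comparison. It read 57.5, 77.6, 76.0 and 30.3 in glucosamine plus IL-1β, 86.6 and 88.3 in glucosamine, 30.3, 55.5, 59.9 and 34.5 in IL-1β, and 62.6, 61.9 and 60.4 in untreated cultures. Both glucosamine arrays lay above all others, and all IL-1β arrays lay below the untreated ones. The log2 fold changes against untreated cultures were 0.51 for glucosamine (SE 0.39, adjusted p = 0.59) and -0.51 for IL-1β (SE 0.33, adjusted p = 0.33).

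The other 3 INK4 genes, named together after their values were seen, were lower with glucosamine and with IL-1β than in untreated cultures. Cdkn2a, which encodes p16 and the activator of p53 known as ARF, averaged 70.4 with glucosamine and 190.4 in untreated cultures (log2 fold change -1.43, SE 0.16, adjusted p = 8.8e-05). Cdkn2c (p18) averaged 123 with glucosamine and 297 in untreated cultures (-1.28, SE 0.17, adjusted p = 2.9e-04). Cdkn2d (p19) averaged 42.3 with glucosamine and 83.8 in untreated cultures (SE 0.26 on the log2 scale, adjusted p = 0.022). For IL-1β against untreated cultures, the log2 fold change was -0.47 for Cdkn2a (adjusted p = 0.023), -0.70 for Cdkn2c (adjusted p = 0.0029) and -0.91 for Cdkn2d (adjusted p = 0.0084).

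The D-type cyclins are the subunits through which growth factors and cytokines reach CDK4 and CDK6. Ccnd1 (cyclin D1) showed the largest difference between IL-1β alone and both agents among the 3 cyclins. Its representative probe set read 465, 371, 483 and 621 in glucosamine plus IL-1β, 547 and 450.5 in glucosamine, 1633, 1504, 1513 and 1812 in IL-1β, and 633, 728 and 708 in untreated cultures. Every IL-1β array was above every array of the other groups. Ccnd1 was 2.34-fold higher with IL-1β than in untreated cultures (log2 fold change 1.23, SE 0.15, adjusted p = 6.3e-05). With both agents it was 3.38-fold lower than with IL-1β alone (-1.76, SE 0.14, adjusted p = 2.3e-06), and the interaction was -1.28 (SE 0.22, adjusted p = 0.0032).

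The 3 probe sets of Ccnd1 agreed on the rise with IL-1β, which was 2.34-fold, 2.15-fold and 2.89-fold, and on the fall with both agents against IL-1β alone, which was 3.38-fold, 3.75-fold and 3.32-fold, all called. They did not agree on the level with both agents against untreated cultures. It was 1.44-fold lower by the representative (adjusted p = 0.020) and 1.75-fold lower by 1371150_at (adjusted p = 8.7e-06), but 1371643_at gave a log2 fold change of -0.20 (adjusted p = 0.46). The call of the representative was lost without untreated replicate b or c and in a fit of these 2 groups alone. It was also lost in the analysis of variance with Tukey's test that the methods describe. Glucosamine alone against untreated cultures gave -0.47 by the representative (adjusted p = 0.107, called without both replicate d arrays), -0.41 by 1371150_at (adjusted p = 0.0080) and 0.20 by 1371643_at (adjusted p = 0.74).

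**Figure D2:**
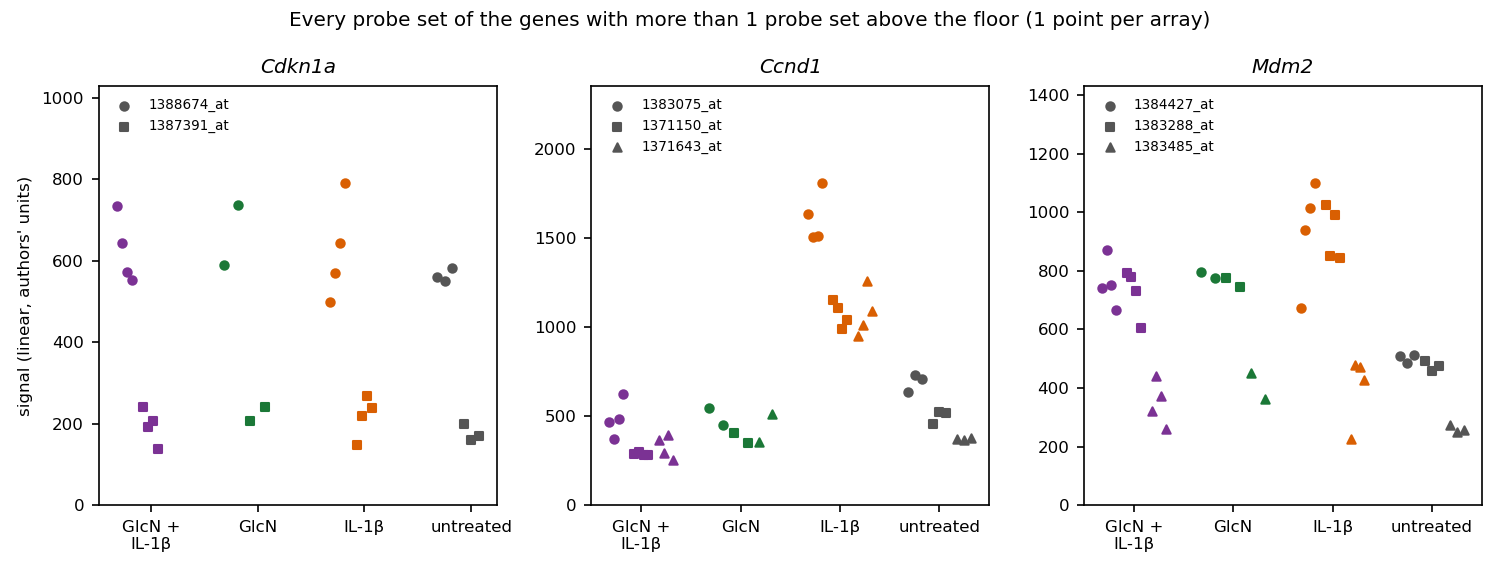
Signal (linear intensity) of every probe set of Cdkn1a, Ccnd1 and Mdm2, with 1 point per array and 1 marker shape per probe set; GlcN is glucosamine. The 3 probe sets of Ccnd1 were each highest in IL-1β cultures, with means of 1616, 1073 and 1078.

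Ccnd3 (cyclin D3) was lower than in untreated cultures with IL-1β alone and with both agents. It read 202, 188, 196 and 140.0 in glucosamine plus IL-1β, 268 and 274 in glucosamine, 197, 174, 188 and 153 in IL-1β, and 313, 314 and 300.1 in untreated cultures. Neither IL-1β group overlapped with the untreated arrays. The fold was 1.74-fold lower with IL-1β (log2 fold change -0.80, SE 0.12, adjusted p = 4.2e-04) and 1.72-fold lower with both agents (-0.78, SE 0.12, adjusted p = 5.2e-04), and both agents against IL-1β alone gave 0.02 (SE 0.11, adjusted p = 0.97). Glucosamine alone gave -0.19 (SE 0.15, adjusted p = 0.59), and without both replicate d arrays this comparison, both agents against glucosamine, and the interaction of Ccnd3 were called.

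Ccnd2 (cyclin D2) was not called in any comparison, and read 185, 119.7, 216 and 239.8 in glucosamine plus IL-1β, 173 and 137 in glucosamine, 217, 223, 161 and 153 in IL-1β, and 231, 265 and 252 in untreated cultures. The untreated arrays lay above both glucosamine arrays and all IL-1β arrays. Its log2 fold change against untreated cultures was -0.70 for glucosamine (SE 0.26, adjusted p = 0.115), -0.42 for IL-1β (SE 0.22, adjusted p = 0.22) and -0.44 for both (SE 0.22, adjusted p = 0.21).

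Against untreated cultures, Gadd45a and Mdm2 were called higher in all 3 treated groups, and Ccng1 in both groups with glucosamine. Gadd45a, a stress-induced gene whose product binds PCNA and restrains CDK1, read 3130, 3502, 2640.3 and 2739 in glucosamine plus IL-1β, 2832 and 2569 in glucosamine, 2165, 2590.1, 2352 and 2613 in IL-1β, and 1143, 1253 and 1192 in untreated cultures. Every treated array was above every untreated array. Gadd45a was 2.26-fold higher with glucosamine (log2 fold change 1.17, SE 0.13, adjusted p = 6.5e-05), 2.03-fold higher with IL-1β (1.02, SE 0.11, adjusted p = 1.8e-05) and 2.50-fold higher with both (1.32, SE 0.11, adjusted p = 2.8e-06). The interaction was -0.87 (SE 0.16, adjusted p = 0.0044). The difference between both agents and IL-1β alone, 1.23-fold (0.30, SE 0.097, adjusted p = 0.0437), lost its call in 14 of 25 alternative settings, with adjusted p between 0.0123 and 0.129.

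Mdm2, the ubiquitin ligase that degrades p53 and is itself induced by it, read 741, 871, 753 and 667 in glucosamine plus IL-1β, 796 and 775 in glucosamine, 673, 941, 1014 and 1102 in IL-1β, and 509.6, 485 and 514 in untreated cultures. All treated arrays were above the untreated ones, while the treated groups overlapped with each other. It was 1.56-fold higher with glucosamine (log2 fold change 0.64, SE 0.17, adjusted p = 0.0255), 1.82-fold higher with IL-1β (0.87, SE 0.14, adjusted p = 7.8e-04) and also higher with both (0.59, SE 0.14, adjusted p = 0.0104). The call for glucosamine was lost in 6 of 25 alternative settings, among them without either glucosamine array or any untreated array. The interaction was -0.93 (SE 0.22, adjusted p = 0.0202), and its call was lost without either glucosamine array or untreated replicate b. The probe set 1383288_at gave the same calls in these 4 comparisons and was also lower with both agents than with IL-1β alone (-0.35, SE 0.092, adjusted p = 0.0158), whereas 1383485_at gave no call and overlapped with the untreated arrays in both groups with IL-1β. The 3 calls of Mdm2 against untreated cultures were lost in the analysis of variance with Tukey's test that the methods describe.

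Ccng1 (cyclin G1), a p53 target that recruits a phosphatase to Mdm2, read 1821, 2172, 1719 and 1974 in glucosamine plus IL-1β, 1772 and 1699 in glucosamine, 1682, 1333, 1331 and 1402 in IL-1β, and 1113, 1191 and 1230.2 in untreated cultures. It was highest where glucosamine was present, and its treated arrays were all above the untreated ones. It was 1.47-fold higher with glucosamine (log2 fold change 0.56, SE 0.12, adjusted p = 0.0068, lost without glucosamine replicate a) and 1.63-fold higher with both agents (0.70, SE 0.098, adjusted p = 2.4e-04). IL-1β alone gave 0.28 (SE 0.098, adjusted p = 0.0598), and both agents were 1.34-fold higher than IL-1β alone (0.42, SE 0.091, adjusted p = 0.0051). All 3 calls of Ccng1 were lost in the methods' analysis of variance with Tukey's test.

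**Figure D3:**
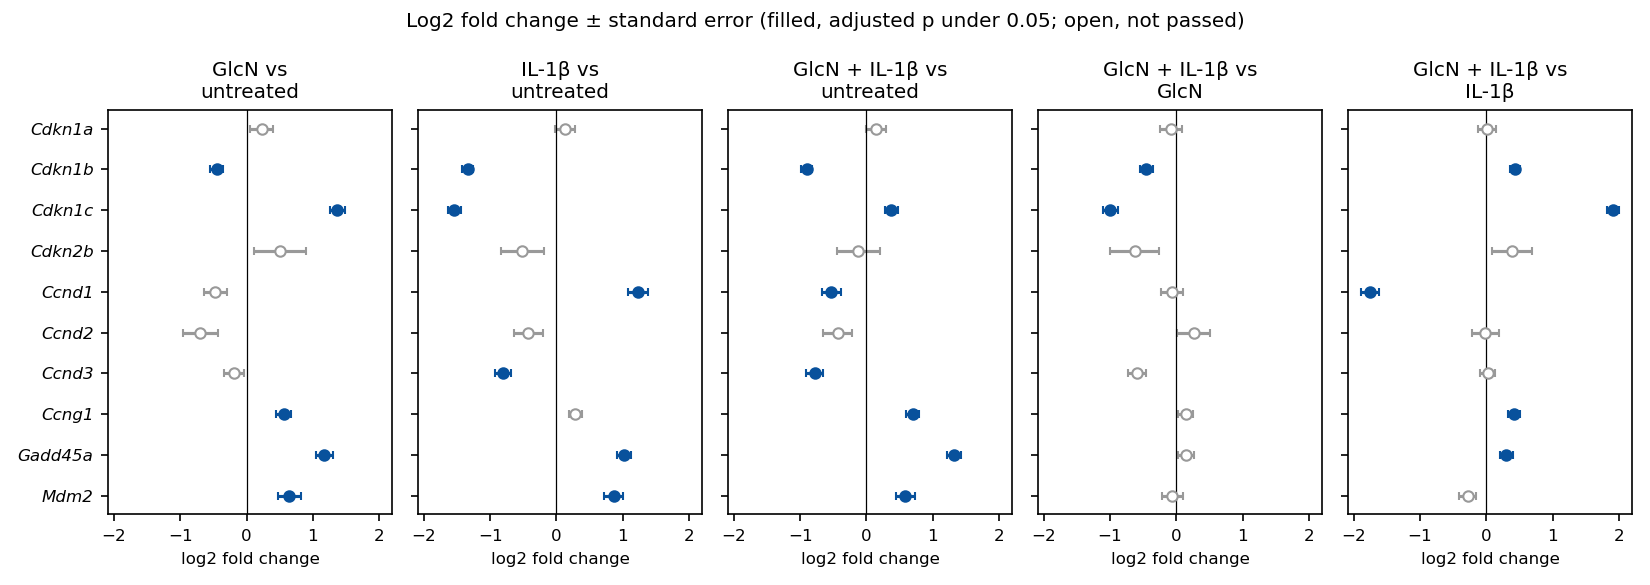
Log2 fold change with its SE for the representative probe set of each of the 10 genes in the comparisons with untreated cultures and between treated groups. Filled points passed an adjusted p under 0.05; Cdkn1c lay at 1.37 for glucosamine and -1.54 for IL-1β, both against untreated cultures.

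The promoters of 7 of the 10 genes were read from RefSeq (GRCr8) over 250 bases before the gene start, and 3 windows are shown because they hold a motif of p53, which has Ccng1, Gadd45a, Mdm2 and Cdkn1a among its targets. The 7 were Cdkn1a, Cdkn1b, Cdkn2b, Ccnd3, Ccng1, Gadd45a and Mdm2. Cdkn1c, Ccnd1 and Ccnd2 were not matched. A p53 decamer, the repeat unit of the p53 response element, was found in Cdkn1a, Ccng1 and Gadd45a, 3 of 7, and in 6.64% of all 33469 promoters of that length. The decamer of 10 bases is in capitals, 5′ to 3′ on the strand of the gene.
Cdkn1a, chr20:7150691-7150780, plus strand: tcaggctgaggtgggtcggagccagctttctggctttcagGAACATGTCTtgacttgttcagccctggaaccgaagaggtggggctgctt
Ccng1, chr10:25685059-25685126, minus strand: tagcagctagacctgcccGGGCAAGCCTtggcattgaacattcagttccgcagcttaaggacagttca
Gadd45a, chr4:97486800-97486887, minus strand: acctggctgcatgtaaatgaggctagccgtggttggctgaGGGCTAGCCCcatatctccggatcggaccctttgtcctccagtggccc
The decamer lay 201 to 192 bases before the start in Cdkn1a, 232 to 223 in Ccng1 and 48 to 39 in Gadd45a. Of these genes, Ccng1 and Gadd45a were called higher with glucosamine and Cdkn1a was not. Mdm2, which had no decamer in its window, was also called higher with glucosamine. On both strands, the Sp1 motif GGGCGG was found in 6 of 7 promoters (30.5% of all), the CRE TGACGTCA in Cdkn2b (1.59%) and the FoxO motif TGTTTAC in Mdm2 (3.21%). The AP-1 motif TGANTCA (6.34%), the E-box CACGTG (5.59%) and the E2F motifs TTTGGCGC, TTTCGCGC and TTTCCCGC (1.41%) were in none of the 7 windows. A match is a description of these letters and not of a bound site.

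In the presence of glucosamine, the response to IL-1β was small by the representative probe sets of the 3 genes that IL-1β alone raised. For Ccnd1 it was a log2 fold change of -0.06 with glucosamine (adjusted p = 0.93) and 1.23 without it, for Gadd45a 0.15 (adjusted p = 0.82) and 1.02, and for Mdm2 -0.06 (adjusted p = 0.93) and 0.87. The other probe sets of Ccnd1 fell further with glucosamine present. They gave -0.39 (1371150_at, adjusted p = 0.0376, called lower) and -0.41 (1371643_at, adjusted p = 0.64). The signals of Gadd45a and Mdm2 were already above the untreated level with glucosamine alone, whereas that of Ccnd1 was not by its representative and 1371150_at. By 1371643_at, Ccnd1 averaged 435 with glucosamine and 371 in untreated cultures, with overlapping arrays and no call. Of the 3 genes that IL-1β alone lowered, Cdkn1c gave -0.99 with glucosamine and -1.54 without it, Cdkn1b -0.45 and -1.34, and Ccnd3 -0.59 (adjusted p = 0.0614) and -0.80, the last with an interaction of 0.21 (SE 0.18, adjusted p = 0.78).

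**Figure D4:**
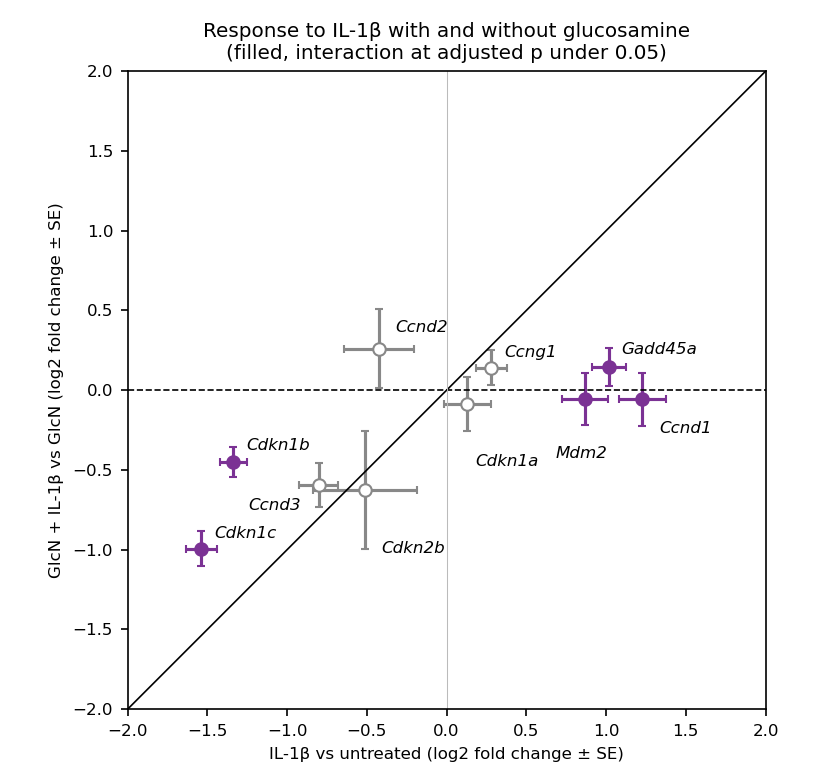
Log2 fold change with its SE for IL-1β in the presence of glucosamine (vertical axis) and in its absence (horizontal axis), for the representative probe set of each of the 10 genes. The diagonal is where both responses are the same, and the dashed line is a response of 0 in the presence of glucosamine. Filled points had an interaction at an adjusted p under 0.05; Ccnd1, Gadd45a and Mdm2 lie near the dashed line at 1.23, 1.02 and 0.87 on the horizontal axis.

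Of 25 other genes of G1 progression, 5 were lower with glucosamine than in untreated cultures (20%, against 9.37% of all genes), among them E2f1, which drives replication genes (36.9 against 84.6, log2 fold change -1.21, SE 0.17, adjusted p = 5.1e-04), and Tfdp2, a partner of the E2F factors (-1.32, adjusted p = 6.7e-05). With IL-1β, 4 were higher (16%, against 15.5% of all genes) and 7 were lower (28%, against 15.3%). Rbl1 (p107), a relative of the retinoblastoma protein, averaged 143 with IL-1β and 84.2 in untreated cultures (0.77, SE 0.14, adjusted p = 0.0016), while Cdk7, a kinase that activates the others, averaged 183 with IL-1β and 349 in untreated cultures (-0.95, SE 0.14, adjusted p = 2.8e-04). With both agents 8 were lower than in untreated cultures (32%, against 14.7%), and 2 were higher (8%, against 15.8%) and 8 lower (32%, against 14.8%) than with IL-1β alone. Ccne2 (cyclin E2), the cyclin type that acts after the D type, averaged 45.6 with both agents and 129 with IL-1β alone (-1.63, SE 0.29, adjusted p = 0.00135).

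Of 22 other genes of the p53 pathway, 1 was higher (4.55%, against 10.4% of all genes) and 3 were lower (13.6%, against 9.37%) with glucosamine than in untreated cultures, shares near those of all genes. Gadd45b and Fas, a relative of Gadd45a and a death receptor, averaged 89.2 and 115 with glucosamine and 339.6 and 302 in untreated cultures (log2 fold changes -1.93 and -1.42, adjusted p = 0.0023 and 4.95e-05). With IL-1β, 5 were higher (22.7%, against 15.5%) and 6 were lower (27.3%, against 15.3%). Aen, a nuclease induced by p53, averaged 350.0 with IL-1β and 165 in untreated cultures (1.08, SE 0.091, adjusted p = 3.6e-06), and Sesn1, a regulator of growth under stress, averaged 18.7 with IL-1β and 47.6 in untreated cultures (-1.36, SE 0.19, adjusted p = 1.8e-04). Gadd45g, another relative of Gadd45a, averaged 61.0 with IL-1β and 185 in untreated cultures (-1.76, SE 0.37, adjusted p = 0.0041). It was also lower with both agents than in untreated cultures (-2.60, SE 0.37, adjusted p = 2.7e-04). Plk3 averaged 60.0 with IL-1β and 24.6 in untreated cultures (1.27, SE 0.32, adjusted p = 0.0126). With both agents, 2 were higher (9.09%, against 16.6%) and 4 lower (18.2%, against 14.7%) than in untreated cultures, and 6 were higher (27.3%, against 15.8%) and 7 lower (31.8%, against 14.8%) than with IL-1β alone.

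Of 15 proliferation markers, 14 were lower with glucosamine than in untreated cultures (93.3%, against 9.37% of all genes), with a median log2 fold change of -3.05. With both agents 14 were lower (93.3%, against 14.7%), with a median of -3.07. With IL-1β 2 were higher (13.3%, against 15.5%) and 2 were lower (13.3%, against 15.3%), with a median of 0.06 and shares near those of all genes. The part of the proliferation markers in the changes of Cdkn1c, Ccnd1 and the p53 targets was not tested. Of 7 chondrocyte markers, 7 were lower with both agents than in untreated cultures (100%, against 14.7% of all genes). With glucosamine 3 were lower (42.9%, against 9.37%), and with IL-1β 7 were lower (100%, against 15.3%). Acan, the core protein of cartilage proteoglycan, averaged 35.1 with IL-1β and 240.2 in untreated cultures, and Hapln1, the link protein, averaged 75.9 with IL-1β and 662 in untreated cultures (adjusted p = 7.8e-08 and 1.6e-08). The part of the chondrocyte markers in the results was not tested. Among markers of other cells, the summed signal of 5 leukocyte genes was 82.0 to 95.6 with both agents, 42.7 to 56.0 with glucosamine, 206 to 251 with IL-1β and -5.71 to 5.32 in untreated cultures, with Itgam at most 7.33 on all arrays and Cd68 the largest term. The summed signal of 3 adipocyte genes was 93.1 to 185 with both agents, 29.3 to 42.1 with glucosamine, 589 to 1052 with IL-1β and 21.4 to 28.1 in untreated cultures, led by Fabp4. For 5 markers of fibroblasts or dedifferentiated cells, the sum was 10215 to 12314 with both agents and 10809 to 11799 with glucosamine. It was 9513 to 11284 with IL-1β and 11461 to 13297 in untreated cultures. Of 4 endothelial markers, 2 were higher with IL-1β than in untreated cultures (50%, against 15.5% of all genes). The part of these genes in the results with IL-1β was not tested.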

How the data were processed

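Values were the deposited intensities, 1 per probe set and array, which per the study's methods the authors made with Microarray Suite version 5 and Probe Profiler and scaled globally, and they were used unscaled; the labels name MAS5. They were linear and partly below 0. Of 31099 probe sets, 57 controls were left out; 20826 carried 1 gene, 436 several and 9780 none. Values were floored at 5.71 (25th percentile of all values) and taken as log2. One limma 3.58.1 fit in R 4.3.3 (variance trend, 9 residual degrees of freedom) covered the 4 groups, 6 comparisons were made, 2-sided, and p-values were adjusted by Benjamini-Hochberg over 29263 probe sets. Precision is limited by the few arrays and the floor. All 10 genes were named. Of the companion lists, only some of the genes with large changes among the called were named. The genes and lists were chosen with earlier results of these data known. Groups came from sample titles. For both agents against IL-1β, arrays of the same replicate letter correlated in their deviations at 0.38 to 0.80, highest for the 2 replicate d arrays. Arrays of different letters among a to c correlated about as strongly (0.33 to 0.56). This check therefore does not show that the letters pair these groups. Alternatives were other floors, scalings, filters, no variance trend, 2-group fits, averaged probe sets, a replicate block, single arrays or both replicate d arrays left out, and the methods' analysis of variance with Tukey's test. Tukey's test was read only for genes that passed the methods' cut on the analysis of variance, which Ccng1 and Mdm2 missed. The limma fit was tested on simulated data.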

Additional observations from a re-analysis of the deposited data

Results flagged for a closer look

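The response to IL-1β differed with and without glucosamine for 5 of the 10 genes by the limma interaction, where 5.11% of all genes were called higher and 6.68% lower. The values were 0.89 (log2) for Cdkn1b, 0.55 for Cdkn1c, -1.28 for Ccnd1, -0.87 for Gadd45a and -0.93 for Mdm2. A positive value means a response to IL-1β that was higher, or less negative, with glucosamine. The call was lost in 12 of 23 alternative settings for Cdkn1c, in 3 for Mdm2, and on averaging of the probe sets for Cdkn1b.

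In groups of 4 arrays, 2 of 32 tests for a single far value exceeded Dixon's critical value, and chance alone gives about 1 in 20. Cdkn1b (1373812_at) read 208.2 in IL-1β replicate a, against 244 to 251 in the other 3. Cdkn1b (1369192_at), near or below the floor, read -16.38 in glucosamine plus IL-1β replicate d, against -2.71 to -0.18 in the other 3.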

How the results depend on the processing

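No result changed direction among the called ones. Of 30 called results of single genes, 15 kept their call in every alternative, and of 30 uncalled ones, 22 never gained one. For both agents against glucosamine (2 genes called), 1 was called with quantile normalization, without a variance trend, with 2 groups alone and with probe sets averaged. The methods' analysis of variance with Tukey's test called 3 genes for glucosamine against untreated cultures (5 in limma), 4 for both agents against untreated cultures (7) and 3 for both agents against IL-1β (5), while the fit of 2 groups alone called 9 for glucosamine against untreated cultures. Leaving out 1 array gave 2 (without glucosamine replicate a) to 7 genes for glucosamine against untreated cultures, 1 to 3 for both agents against glucosamine, and 3 (without either glucosamine array or untreated replicate b) to 5 for the interaction; the cause was not tested. Without both replicate d arrays, glucosamine against untreated cultures gave 7. Over all groups, same-letter deviations correlated between -0.18 and 0.80, and 6 of 13 arrays correlated best with their own letter. The replicate letters were therefore taken only as names. The replicate block gave 6 genes for glucosamine, 6 for IL-1β and 7 for both agents against untreated cultures. For both agents it gave 3 against glucosamine and 5 against IL-1β, and it gave 5 for the interaction. It gained Ccnd1 for glucosamine against untreated cultures and Ccnd3 for both agents against glucosamine, and changed no other call. Glucosamine alone rests on 2 arrays.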
